A study of Zea mays with 6 samples.

Results

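The lipoxygenase genes of maize were followed in seedling shoots given auxin (indole-3-acetic acid, IAA) for 30 min. The 10 genes were taken from the 39283 genes of the deposited expression table by identifier, and the group was selected on gene names after an earlier look at these same IAA and DMSO values had shown most of them higher after IAA. The counts and ratios below therefore describe the group and test nothing. Both groups used the collected aerial parts of 7-day-old greenhouse seedlings of the inbred line B73. The IAA group was kept for 30 min in IAA with 1% DMSO (the dose is 100 mM in the sample labels and 100 μM in the methods of the study), and the DMSO group for 30 min in 1% DMSO alone. Cutting and soaking were thus shared by both groups. Each group had 3 replicates of 3 plants, but the table holds 1 pooled FPKM (a read count per gene that is divided by transcript length and by the size of the library) per gene and treatment. These values give neither the spread between replicates nor the depth of each library. The authors' own test results were not used, so no difference below was set against replicate error.

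Lipoxygenases add oxygen to polyunsaturated fatty acids and so start the synthesis of oxylipins. Plant enzymes are sorted by the carbon they oxygenate. The 9-LOX enzymes (here LOX1, LOX3, LOX4 and LOX5) feed a branch known mainly from defence against fungi, nematodes and insects, although maize LOX1 has been described as having mixed positional specificity. The 13-LOX enzymes (here LOX8, LOX9, LOX10, LOX11 and LOX13) act mainly in the chloroplast, where their products are passed to allene oxide synthase for jasmonate or to hydroperoxide lyase for green leaf volatiles. LOX6 is set apart because the maize enzyme is known to break down fatty acid hydroperoxides rather than make them. Wounding is a classic inducer of this pathway in leaves.

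In these shoots, 9 of the 10 lipoxygenase genes had a higher FPKM after IAA than in DMSO, and LOX9 had a lower one. The median log2 ratio over the 10 genes was 0.32, and the ratios lay between -0.14 and 0.74. Over the 22506 expressed genes, meaning those whose FPKM averaged 1 or more over the treatments and was above 0 in both, the median log2 ratio was -0.04 and 44.5% were higher after IAA. Only LOX4 and LOX6 were at least 1.5-fold higher, a limit that 4.10% of all these genes reached, and no member was 1.5-fold lower, against 5.18% of all genes. At this limit, LOX6 was the member just inside, at 1.56-fold, and LOX5 the member just outside, at 1.38-fold. All 10 members had a mean FPKM above 1, and no other gene of the table overlapped any of their loci.

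Levels, which FPKM scales to transcript length, spread widely. Comparing them between genes takes each value to hold the reads of its own gene only, which was not tested. The most abundant member had 281 times the FPKM of the least abundant after IAA, and 249 times in DMSO. LOX10, LOX1, LOX5 and LOX6 each had a mean FPKM above 100 and together made up 92.3% of the summed lipoxygenase FPKM after IAA, against 91.9% in DMSO. All 4 were higher after IAA, as were 39.3% of the 1498 genes with a mean FPKM of 100 or more. The order from LOX10 through LOX1, LOX5 and LOX6 to LOX11 was the same in both treatments, as were the last places of LOX9 and LOX13. Between them LOX4 was in the sixth place after IAA, ahead of LOX8 and LOX3, and in the eighth place in DMSO, behind both. After IAA these 3 genes lay between 31.0 and 32.6 FPKM, so that their order there rests on small differences whose error is not known.

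**Figure D1:**
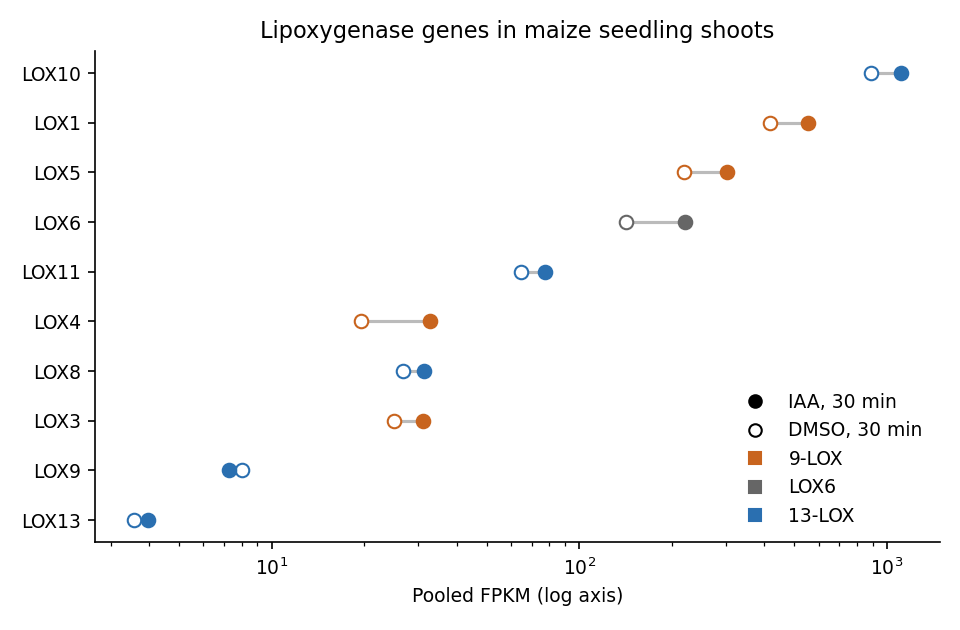
Pooled FPKM of each lipoxygenase gene (log axis), with filled points for IAA and open points for DMSO, coloured by class. The filled point lies to the right for every gene except LOX9 (7.27 FPKM after IAA and 8.01 FPKM in DMSO), and the genes reach up to 1114 FPKM after IAA for LOX10.

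The 9-LOX genes were all higher after IAA. LOX4 (GRMZM2G109056), on chromosome 1 from 264275083 to 264291510 (B73v3, as all coordinates here), had 32.6 FPKM after IAA and 19.5 FPKM in DMSO. Its ratio of 1.67-fold was the highest of the 10 members, and 97.8% of all expressed genes had a lower ratio. LOX5 (GRMZM2G102760), its closest maize relative and a gene known from wounding and insect defence, lies on chromosome 5 from 12285656 to 12290564. It had 303 FPKM after IAA and 219 FPKM in DMSO, a ratio of 1.38-fold. The FPKM of LOX5 was 9.29 times that of LOX4 after IAA and 11.2 times in DMSO. Both genes arose by a duplication and have similar sequences, so reads could have been split between them, which was not tested.

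LOX1 (GRMZM2G156861) was the most abundant 9-LOX gene, with 552 FPKM after IAA and 418 FPKM in DMSO, or 1.32-fold. It lies on chromosome 3 from 168738873 to 168882335. This locus covers 143463 bp, against 3763 to 16428 bp for the other members. In the RefSeq gene table of the B73 NAM 5.0 assembly, LOX2 stands directly beside LOX1, and none of the identifiers of the deposited table is listed for LOX2. Whether the value of GRMZM2G156861 also holds reads of LOX2 was not tested. LOX3 (GRMZM2G109130), a 9-LOX gene known from mutants with altered responses to fungi and nematodes, had 31.0 FPKM after IAA and 25.0 FPKM in DMSO, or 1.24-fold. It lies on chromosome 1 from 264266381 to 264271190, only 3892 bp from LOX4. The neighbours LOX3 and LOX4 thus had similar levels after IAA, while in DMSO LOX3 was the higher of the pair.

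LOX6 (GRMZM2G040095), the hydroperoxide-metabolizing member, lies on chromosome 2 from 4192152 to 4196263. It had 221 FPKM after IAA and 142 FPKM in DMSO. Its ratio of 1.56-fold was second to that of LOX4, and 96.8% of all genes had a lower one. At its level, the difference of 79.7 FPKM was close in size to that of LOX5, which was 83.9 FPKM.

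Among the 13-LOX genes, 4 of 5 were higher after IAA, and none reached 1.5-fold. LOX10 (GRMZM2G015419), which is needed for green leaf volatiles in maize leaves, was the most abundant lipoxygenase gene of the shoots. It lies on chromosome 4 from 234164919 to 234168681 and had 1114 FPKM after IAA and 888 FPKM in DMSO, a log2 ratio of 0.33. In both treatments at least 99.8% of the genes in the table had an FPKM no higher than that of LOX10. LOX11 (GRMZM2G009479), a close relative of LOX10 on chromosome 5 from 123239668 to 123243697, had 77.3 FPKM after IAA and 64.8 FPKM in DMSO, or 1.19-fold. The FPKM of LOX10 was 14.4 times that of LOX11 after IAA and 13.7 times in DMSO, and whether similar reads were divided between them was not tested.

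The remaining 13-LOX genes were low to moderate in level. LOX8 (GRMZM2G104843) is the sex determination gene tasselseed1, which acts in making the jasmonate required for pistil abortion in the tassel. It lies on chromosome 2 from 45820737 to 45825105 and had 31.3 FPKM after IAA and 26.7 FPKM in DMSO, or 1.17-fold. LOX13 (GRMZM5G822593), on chromosome 1 from 188148388 to 188153483, had the lowest level of the 10, with 3.96 FPKM after IAA and 3.56 FPKM in DMSO. LOX9 (GRMZM2G017616), on chromosome 1 from 16573827 to 16580722, had 7.27 FPKM after IAA and 8.01 FPKM in DMSO. It was the only one of the 10 genes with a ratio below 1, at 0.907-fold, and 34.8% of all genes had a lower ratio than LOX9.

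Set side by side, the 9-LOX genes had log2 ratios of 0.31 to 0.74 with a median of 0.43, and the 13-LOX genes had -0.14 to 0.33 with a median of 0.23. The ranges overlapped at LOX10 (0.33) and LOX3 (0.31), while the other 9-LOX genes lay above and the other 13-LOX genes below. A further pair of lipoxygenase genes that the name table lists outside the group had ratios in the range of their own class or just above it. LOX12 (GRMZM2G106748), a 9-LOX gene known from resistance to Fusarium, had 16.1 FPKM after IAA and 11.6 FPKM in DMSO, a log2 ratio of 0.47. LOX7 (GRMZM2G070092), a relative of LOX8, was hardly expressed, with 0.415 FPKM after IAA and 0.325 FPKM in DMSO, a log2 ratio of 0.35. This ratio was above that of every 13-LOX member and lay inside the range of the 9-LOX genes.

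**Figure D2:**
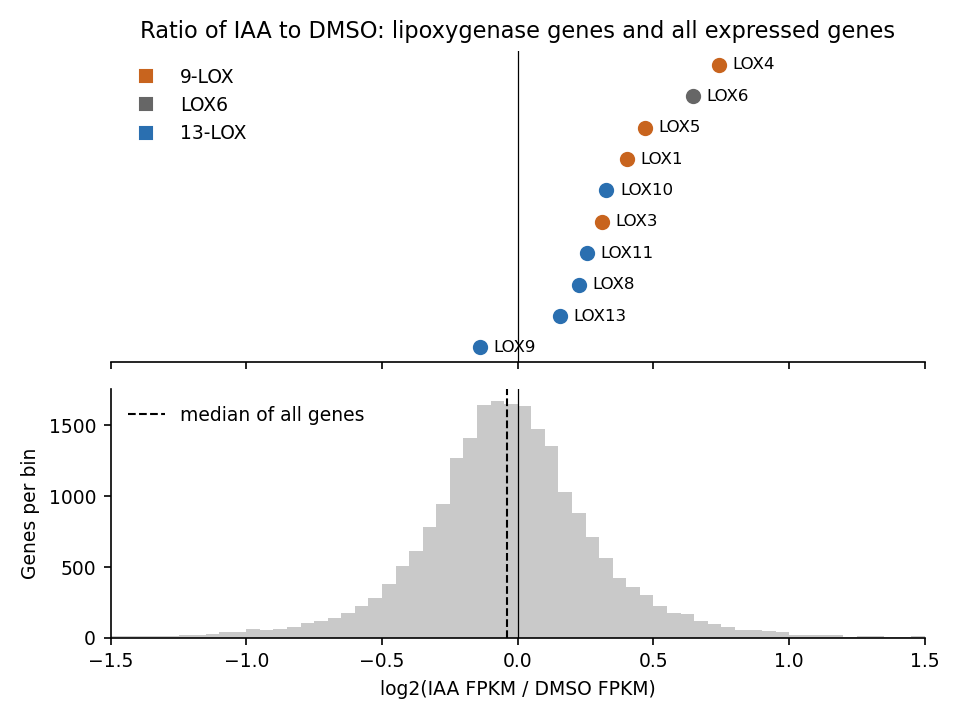
Above, the log2 ratio of IAA to DMSO FPKM for each lipoxygenase gene, coloured by class and ordered by ratio. Below, the number of genes per bin of the same ratio for all expressed genes (dashed line, median -0.04). The plotted range ends at 1.5 on either side and leaves out 172 genes. Only LOX9 lies below 0, and LOX4, at 0.74, lies farthest to the right of the members.

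Summed over the 10 genes, lipoxygenase FPKM was 2375 after IAA and 1815 in DMSO, or 1.31-fold. As a share of the FPKM summed over the whole table, that was 0.302% after IAA and 0.221% in DMSO, or 1.37-fold on a scale that corrects for the different table totals of 785743 FPKM after IAA and 821595 FPKM in DMSO. LOX10 supplied 40.4% of the difference between the treatments, LOX1 24.0%, LOX5 15.0% and LOX6 14.2%. The 9-LOX genes summed to 919 FPKM after IAA and 682 FPKM in DMSO, or 1.35-fold. The 13-LOX genes summed to 1234 FPKM after IAA and 992 FPKM in DMSO, or 1.24-fold. The 9-LOX sum was therefore 0.745 times the 13-LOX sum after IAA and 0.687 times in DMSO. The 9-LOX genes held 38.7% of all lipoxygenase FPKM after IAA and 37.6% in DMSO. This share hung on LOX1, without which it was 20.1% after IAA and 18.9% in DMSO, and on LOX10, without which it was 72.9% after IAA and 73.6% in DMSO, a value that was lower after IAA than in DMSO. Within the classes a few genes held nearly all of the FPKM. LOX10 held 90.3% of the 13-LOX sum after IAA and 89.6% in DMSO, and LOX1 with LOX5 held 93.1% of the 9-LOX sum after IAA and 93.5% in DMSO.

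**Figure D3:**
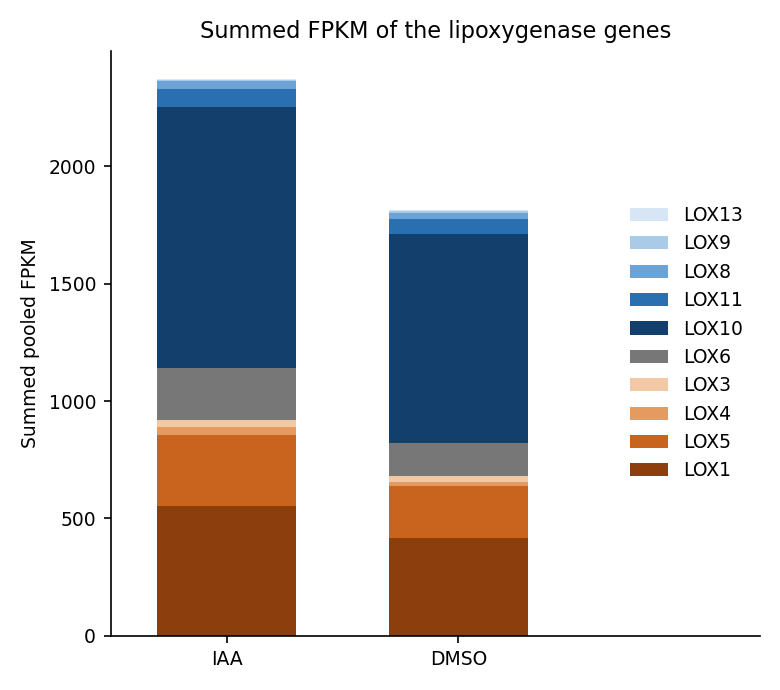
Summed pooled FPKM of the 10 lipoxygenase genes after IAA (left bar) and in DMSO (right bar), divided by gene, with 9-LOX genes in orange and brown, LOX6 in grey and 13-LOX genes in blue. The bars reach 2375 FPKM after IAA and 1815 FPKM in DMSO, and LOX10, LOX1, LOX5 and LOX6 fill most of both.

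The lipoxygenase values were set beside those of genes named for the enzymes that follow in jasmonate synthesis, which the grouping did not use. Allene oxide synthase (AOS) and allene oxide cyclase (AOC) make 12-oxophytodienoate (OPDA) from the 13-LOX product, and OPDA reductases (OPR) act on it next. The OPR genes were taken by name, so they also hold reductases outside the pair known to be needed for jasmonate in maize. Of 13 AOS, AOC and OPR genes with an identifier, 11 were expressed by the same limit. Of these, 6 were higher and 5 lower after IAA, and the median log2 ratio was 0.01, beside 44.5% higher and a median of -0.04 over all expressed genes. None differed by 1.5-fold, a limit reached by 4.10% of all expressed genes upward and 5.18% downward. Summed over the 11 genes, the FPKM was 625 after IAA and 639 in DMSO. As a share of the FPKM summed over the whole table, that was 0.0795% after IAA and 0.0778% in DMSO, or 1.02-fold, so that the direction of this small difference turned with the scaling.

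AOS1 (GRMZM2G067225) was the most abundant gene of the later steps, with 281 FPKM after IAA and 289 FPKM in DMSO. AOC2 (GRMZM2G415793) was the more abundant cyclase gene, with 98.2 FPKM after IAA and 97.4 FPKM in DMSO. The most abundant reductase gene was OPR7 (GRMZM2G148281), one of the pair of reductases known to be needed for jasmonate in maize, with 44.1 FPKM after IAA and 40.3 FPKM in DMSO. The log2 ratios of these 3 genes, -0.04, 0.01 and 0.13, were all below that of every 9-LOX gene. Of the 13-LOX genes, LOX9 was below all 3, and LOX13, at 0.15, was the next lowest and was above them. This does not hold for every gene of the later steps. The less abundant AOS3 (GRMZM2G376661) had 6.73 FPKM after IAA and 5.59 FPKM in DMSO. Its log2 ratio of 0.27 was the highest of the 11 expressed AOS, AOC and OPR genes. It was above that of every 13-LOX gene except LOX10.

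**Figure D4:**
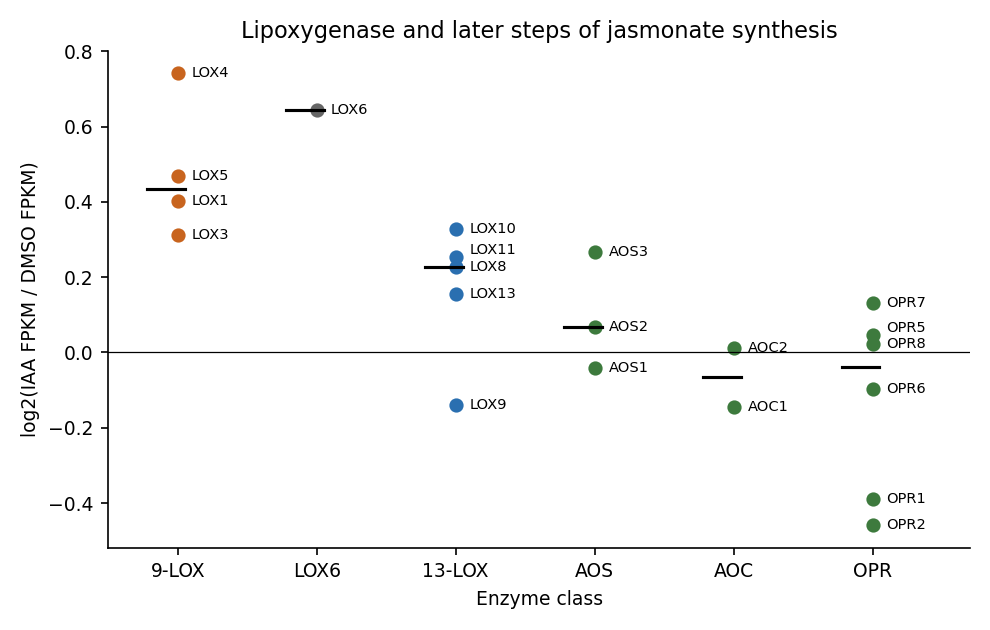
The log2 ratio of IAA to DMSO FPKM for each 9-LOX gene, LOX6, each 13-LOX gene, and the expressed AOS, AOC and OPR genes, with a black bar at each class median. All expressed genes named OPR are shown, not only the pair known to be needed for jasmonate. The medians are 0.43 for the 9-LOX genes and 0.23 for the 13-LOX genes, whereas those of AOS (0.07), AOC (-0.07) and OPR (-0.04) lie near 0.

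The positions of the genes were also compared, since neighbouring genes can share a change. Apart from the adjacent LOX3 and LOX4, the nearest expressed gene on each side of a member was never another member. The gaps to these neighbours outside the group ranged from 2506 bp beside LOX6 to 330596 bp beside LOX8, so many were not close. These 18 neighbours had a median log2 ratio of -0.01, with 9 of 18 higher after IAA, beside 44.5% of all expressed genes. Of them, 1 differed by 1.5-fold or more, GRMZM2G102616 beside LOX5, which had 6.48 FPKM after IAA and 10.2 FPKM in DMSO. Among all expressed genes, 4.10% were at least 1.5-fold higher and 5.18% at least 1.5-fold lower. For 8 of the 10 lipoxygenase genes, the ratio was above that of the gene's own neighbours outside the group. How often any expressed gene lies above its own neighbours was not computed, and LOX3 and LOX4 were compared with 1 neighbour each. The group was also selected after most members had been seen higher, so this count tests nothing. The exceptions were LOX9, which was below both neighbours, and LOX10, which was below GRMZM2G056867 (log2 ratio 0.38) on one side. LOX6 stood between closely spaced genes, 7589 bp from GRMZM2G039588 and 2506 bp from AC210003.2_FG015, whose log2 ratios of -0.03 and 0.02 were both far below the 0.64 of LOX6.

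**Figure D5:**
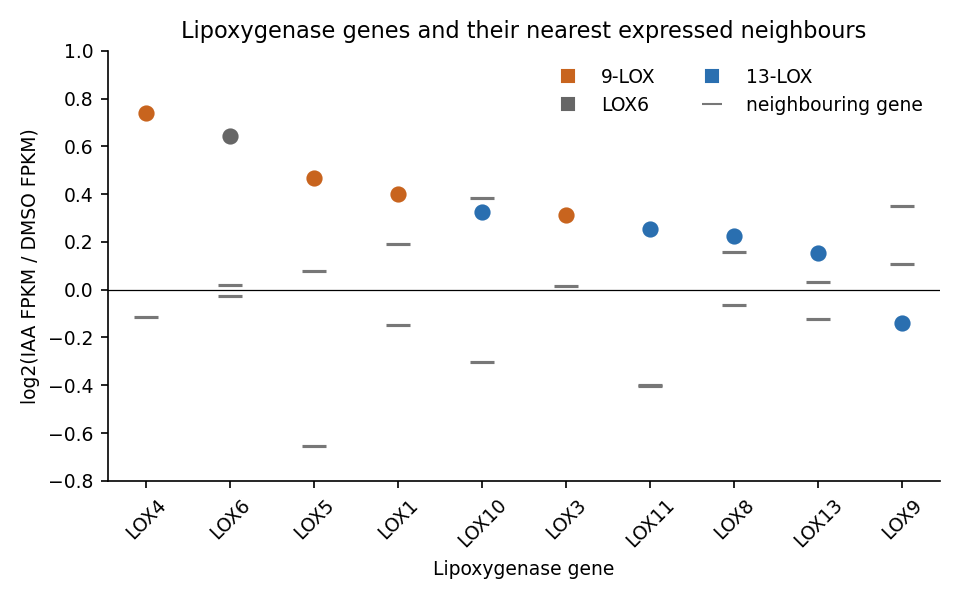
The log2 ratio of IAA to DMSO FPKM for each lipoxygenase gene (points, coloured by class) and for the nearest expressed gene on either side (grey dashes; LOX3 and LOX4, which neighbour each other, have 1 dash each). The neighbours range from -0.65 to 0.38, and every point lies above its dashes except those of LOX9 and LOX10.

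The leaf identity of the samples was checked with genes of C4 photosynthesis, none of which was near 0. All 5 marker genes with a fitting name were higher after IAA, though the 2 Rubisco genes by only 1.01-fold. Their summed FPKM was 8113 after IAA and 6504 in DMSO. Of the 1498 genes with a mean FPKM of 100 or more, 39.3% were higher after IAA. The mesophyll genes differed most. PEPC (GRMZM2G083841), which fixes carbon in the mesophyll, had 1258.5 FPKM after IAA and 805 FPKM in DMSO, and PPDK (GRMZM2G306345), which regenerates its substrate, had 2726 FPKM after IAA and 1741 FPKM in DMSO. The ratio was 1.56-fold for PEPC and 1.57-fold for PPDK, close to the 1.56-fold of LOX6. Of the bundle sheath genes, NADP-ME (GRMZM2G085019) had 721 FPKM after IAA and 570 FPKM in DMSO, or 1.27-fold, and both Rubisco small subunit genes had ratios of 1.01-fold. The part of these leaf gene differences in the lipoxygenase values was not tested. In whole shoots, more cells of a type and more RNA per cell cannot be told apart.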

How the data were processed

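RNA was sequenced from 3 IAA and 3 DMSO samples. Per the methods and labels, stranded libraries were trimmed with trimmomatic, mapped to B73v3 with TopHat2 2.1.1 and compared with Cuffdiff 2.2.1, whose annotation and options are not given in the sources used here. The authors deposited FPKM values pooled over the replicates, 1 per gene and treatment, which were used as they stand. The authors' fold changes, test statistics, p-values and q-values in the same table were not used. Pooled FPKM values keep no read counts, so depth is unknown and no interval is given.

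The log2 ratio is that of IAA FPKM to DMSO FPKM, with no pseudocount. The background is every gene whose FPKM averaged 1 or more and was above 0 in both treatments, which leaves out 18 genes at 0 in 1 treatment. No test was run, and a gene counts as called at 1.5-fold. Coordinates are counted from 1. The members and lists were chosen with earlier results of these data known. Named are all members, the most abundant gene of each later step, pathway genes that differed by 1.5-fold, and neighbours. AOS3, LOX7, LOX12, OPR1 and OPR2 were added after their values were seen. Names came from RefSeq (NAM 5.0), which lists 9 of the 10 members, LOX13 not among them. Hydroperoxide lyase, OPR4 and LOX2 had no identifier there, and carbonic anhydrase no fitting name, so they are not reported. Counting was tested on simulated data. Alternatives were pseudocounts of 0.1 and 1 FPKM, centring, a minimum average FPKM of 1 and 5, log2 limits of 0.32 and 1 for a call, and sums without LOX1 or LOX10. Sequences were not analysed here. The work was done in Python 3.11.15 with pandas 2.3.3, numpy 2.4.6 and, for plots, matplotlib 3.10.9.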

Additional observations from a re-analysis of the deposited data

How the results depend on the processing

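No paired analysis was possible because replicates were pooled before deposit. Leaving out replicates and a replicate block were not run for the same reason. With no replicate error, a value is called moved where its printed digits changed. Over 30 pairs of a member and a setting (pseudocounts of 0.1 and 1 FPKM, and the median of all genes, -0.04, set to 0), no member changed sign and none crossed 1.5-fold. A pseudocount added to both values cannot change a sign. Centring moved every ratio by less than the distance of any member from 0 or from the limit. The lack of sign changes is therefore no check on the differences.

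The median log2 ratio of the 10 genes was 0.31 with a pseudocount of 1 FPKM, 0.36 with centring and 0.33 with members averaging 5 FPKM or more. For the 9-LOX genes it was 0.47 with centring and 0.47 with LOX12 added. For the 13-LOX genes it was 0.22 with a pseudocount of 1 FPKM, 0.26 with centring, 0.24 with the same minimum of 5 FPKM and 0.24 with LOX7 added. At a log2 limit of 0.32 in place of 0.58, 5 members were called higher, as were 11.8% of all genes, and at a limit of 2-fold there were 0, beside 0.938% of all genes. With no filter on low values, 8.99% of all genes were 1.5-fold higher, and with a minimum of 5 FPKM 2.80% were.

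The 9-LOX share of summed FPKM was 20.1% after IAA and 18.9% in DMSO without LOX1, 72.9% and 73.6% without LOX10, and 39.1% and 37.95% with LOX12 and LOX7 added. The fold of the summed FPKM was 1.36 without LOX10 and 1.304 without LOX1. The additions of LOX12 and LOX7 and the fold without LOX1 were chosen after seeing the data.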

Other observations

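The TIFY genes, a family that includes the JAZ repressors of jasmonate signalling, were mixed in direction after IAA, while their summed FPKM was higher. Of 21 genes with such a name, 20 averaged 1 FPKM or more, and of these 12 were higher and 8 lower, with a median log2 ratio of 0.05. Among all expressed genes, 44.5% were higher. Summed over the 20 genes, the FPKM was 1336 after IAA and 1108 in DMSO. As a share of the whole table, that was 1.26-fold, beside 1.37-fold for the 10 lipoxygenase genes and 1.30-fold for the 13-LOX genes. Beside the 4.10% of all genes that were 1.5-fold higher, 2 TIFY genes were, and none was 1.5-fold lower. TIFY4 (GRMZM2G445634) had 182 FPKM after IAA and 94.5 FPKM in DMSO, or 1.92-fold, a ratio above that of any lipoxygenase gene. TIFY15 (GRMZM2G005954) had 20.1 FPKM after IAA and 12.2 FPKM in DMSO, or 1.65-fold, close to the 1.67-fold of LOX4. The most abundant, TIFY27 (GRMZM2G089736), had 374 FPKM after IAA and 295 FPKM in DMSO, a log2 ratio of 0.34 beside the 0.33 of LOX10.

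Among the genes named OPR, which were taken by name, OPR1 (GRMZM2G106303) and OPR2 (GRMZM2G000236) had the lowest log2 ratios, -0.39 and -0.46. OPR2 had 14.5 FPKM after IAA and 19.9 FPKM in DMSO, and OPR1 had 10.1 FPKM after IAA and 13.2 FPKM in DMSO. These 2 genes were singled out after their values were seen. With pooled values alone, no difference among these genes was tested.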
